A study of Mus musculus with 19 samples.

Results

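The 10 genes described here encode the S100 proteins S100A4, S100A6, S100A10, S100A11 and S100A13 (*S100a4*, *S100a6*, *S100a10*, *S100a11* and *S100a13*), annexins A1, A2 and A6 (*Anxa1*, *Anxa2* and *Anxa6*), galectin-3 (*Lgals3*) and vimentin (*Vim*). They were taken by symbol from the 24982 rows of the gene count table, and all 10 were found and passed the filter on low counts. They were chosen by their measured levels in these libraries, where they stood higher in CD44high than in CD44low regulatory T cells (Tregs), so that difference is given below as a description, with no test. The cells were CD4+FoxP3-GFP+ Tregs, sorted by their CD44 from the lymph nodes that drain the injury site of Foxp3DTR mice, which were aged 8 to 16 weeks according to the methods of the study. Foxp3DTR mice carry a diphtheria toxin receptor and GFP under control of the *Foxp3* locus, and all 4 groups share this allele. The groups were CD44high Tregs of uninjured mice (n = 4 libraries), CD44low Tregs of uninjured mice (n = 5), CD44high Tregs of injured mice (n = 4) and CD44low Tregs of injured mice (n = 6). The injury was a burn over 20% of the surface, made in a bath of 90 °C for 9 s, and nodes were taken on day 7. Uninjured mice had the sham procedure. Each library came from 50000 cells. No source used here says whether a library held the cells of 1 mouse or of several, so the p-values measure the spread between libraries, which may be technical in part. Of the injured CD44low libraries, 3 are numbered 1, 2 and 5, and the other 3 have a second number in the label (1_2, 4_2 and 5_2), whose meaning no source used here gives.

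S100 proteins are small proteins that bind calcium through EF hands and then dock onto other proteins. S100A10 is the exception that no longer responds to calcium, and it forms a complex with annexin A2 at the plasma membrane. Annexins bind acidic phospholipids when calcium rises and take part in membrane repair and vesicle traffic, galectin-3 binds beta-galactoside sugars on glycoproteins, and vimentin is the intermediate filament protein of leukocytes. Transcripts of several of these genes are known to be more abundant in antigen-experienced T cells, which carry much CD44, than in naive T cells, which carry little CD44.

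The 5 S100 members all lie on chromosome 3, where *S100a10* and *S100a11* are neighbours and each of *S100a4*, *S100a6* and *S100a13* lies between other S100 genes. The others are spread over chromosomes 19 (*Anxa1*), 9 (*Anxa2*), 11 (*Anxa6*), 14 (*Lgals3*) and 2 (*Vim*). RefSeq promoter entries were matched for 8 of the 10, all except *S100a10* and *Anxa6*. The 5 sequences shown are the 150 bases before the RefSeq start (GRCm38.p6, 5′ to 3′ on the strand of the gene) of those members in which a TATA box (TATAAA) or an AP-1 motif (TGANTCA) was found on either strand. They are shown for that match alone. *S100a6*, *S100a13* and *Lgals3*, which had neither motif, were also higher in CD44high Tregs. Capitals mark those 2 motifs. The intervals are chr3:90603620-90603769, chr3:93520346-93520495, chr9:69453533-69453682 and chr2:13574161-13574310 on the plus strand and chr19:20390672-20390821 on the minus strand.
S100a4: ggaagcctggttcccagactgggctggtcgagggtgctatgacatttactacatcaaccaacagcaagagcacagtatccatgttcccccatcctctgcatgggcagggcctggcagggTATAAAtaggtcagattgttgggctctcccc
S100a11: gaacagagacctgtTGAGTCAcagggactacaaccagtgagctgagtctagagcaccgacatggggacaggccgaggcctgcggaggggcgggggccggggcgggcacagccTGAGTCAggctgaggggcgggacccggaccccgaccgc
Anxa1: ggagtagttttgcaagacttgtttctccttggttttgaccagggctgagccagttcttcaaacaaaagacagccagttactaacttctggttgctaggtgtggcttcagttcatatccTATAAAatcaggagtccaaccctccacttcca
Anxa2: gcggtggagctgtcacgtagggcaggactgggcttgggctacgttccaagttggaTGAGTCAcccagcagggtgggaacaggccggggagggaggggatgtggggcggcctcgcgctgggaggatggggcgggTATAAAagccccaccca
Vim: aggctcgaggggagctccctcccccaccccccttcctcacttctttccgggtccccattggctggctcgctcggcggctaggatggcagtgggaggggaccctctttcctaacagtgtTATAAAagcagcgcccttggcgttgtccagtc
A TATA box was found in 4 of the 8 (*S100a4*, *Anxa1*, *Anxa2* and *Vim*), against 7.57% of 32851 RefSeq promoters cut to the same length. Its first base lay 31 bases before the start in *S100a4*, 32 in *Anxa1* and *Vim*, and 17 in *Anxa2*. The AP-1 motif was found in 2 of the 8, at 2 places in *S100a11* and 1 in *Anxa2*, against 4.24% of promoters. A GC box (GGGCGG) was found in 3 of the 8 against 28.6% of promoters and a CCAAT box (CCAAT) in 1 (*Vim*) against 24.5%. These are matches of letters and not measured binding, and none of the 4 motifs was found in the windows of *S100a6* and *S100a13*.

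Libraries held between 5582234 and 9433610 counts. The sort by CD44 was seen in *Cd44* itself, at 595 ± 37.5 CPM (counts per 1000000 counts, with library sizes scaled by TMM factors) in CD44high and 133 ± 16.1 in CD44low Tregs of uninjured mice (mean ± SD), and at 436 ± 54.6 and 117 ± 18.2 after injury. *Foxp3*, which defines Tregs, stood between 70.7 ± 20.6 and 115 ± 17.3 CPM in the 4 groups. Markers of other cells were counted as well. The summed level of 10 macrophage and dendritic cell markers ranged from 71.2 to 145 CPM in CD44high and from 27.5 to 46.6 in CD44low libraries of uninjured mice, and from 88.6 to 248 and from 37.9 to 160.3 in those of injured mice. Of the 7 that were tested, 5 were called higher in CD44high Tregs of uninjured mice and 1 in those of injured mice. Of all genes, 24.7% were called higher in CD44high Tregs of uninjured mice and 20.1% in those of injured mice. The only ones of the 10 markers without a count were *Cd14* in CD44high and *Fcgr1* in CD44low Tregs of uninjured mice. Macrophages also express several genes of the set, and the part of such cells in the CD44high levels was not tested. The summed level of 10 neutrophil markers, of which *Elane* had no count, reached 5.34 and 1.69 CPM in CD44high and CD44low libraries of uninjured mice and 38.1 and 47.3 CPM in those of injured mice. The summed level of 8 B cell markers ranged from 84.9 to 289 CPM over all libraries and that of 8 keratinocyte markers from 5.21 to 20.3, and 8 CD8 and NK cell markers summed to between 356 and 613 CPM in CD44high and between 74.6 and 107 in CD44low libraries. In CD44high Tregs of uninjured mice most of this last sum was *Gzmb*, whose level is given below. Of the 7 CD8 and NK cell markers tested, 2 were called higher in CD44high Tregs of uninjured mice, and 2 higher and 1 lower in those of injured mice. That of 10 stromal and endothelial markers, most of it *Pecam1*, ranged from 60.7 to 74.7 CPM in uninjured and, without overlap, from 78.6 to 115 in injured CD44high libraries, and in CD44low libraries from 187 to 219 and from 135 to 231. The genes *Pdgfra*, *Lum* and *Pdpn* of that list had no count. In bulk libraries, fewer cells of a type and less RNA per cell cannot be told apart.

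In every one of the 10 genes, which were chosen for that difference, the CD44high libraries stood above the CD44low libraries in both conditions. The same order held for 21.9% of all genes in uninjured and 15.6% in injured mice. After injury, in CD44high Tregs *Anxa1*, *Anxa6* and *Vim* fell, and in CD44low Tregs *S100a4*, *S100a6*, *S100a11*, *Anxa2* and *Lgals3* rose (edgeR quasi-likelihood, with p adjusted after Benjamini and Hochberg over all 11464 genes tested and below 0.05). That is 3 of 10 in CD44high Tregs, where 1.33% of all genes fell, and 5 of 10 in CD44low Tregs, where 4.24% of all genes rose. In CD44high Tregs *S100a13* was the 1 member with a fitted change above 0, and in CD44low Tregs *Anxa6* and *Vim* were the 2 with one below 0. The interaction, which is the effect of injury in CD44high Tregs less that in CD44low Tregs, passed the same test for 5 of 10 (*S100a6*, *Anxa2*, *Anxa6*, *Lgals3* and *Vim*), all with the more negative effect in CD44high Tregs, where 0.454% of all genes were called in that direction. The fitted interaction was below 0 for all 10, as it was for 53.2% of all genes. Of the 10, 7 had a fitted fold change below 1 in CD44high and above 1 in CD44low Tregs, against 20.5% of all genes. Median log2 fold changes of the 10 were -0.21 in CD44high and 0.56 in CD44low Tregs, with an interaction of -0.92, against -0.02, 0.01 and -0.03 over all genes. The comparisons of injury share their libraries with the interaction and with the difference on which the genes were chosen. The interaction equals the difference between subsets in injured mice less that in uninjured mice. A choice of genes with a wide difference can by itself favour falls in CD44high and rises in CD44low Tregs. The shares over all genes come from genes not so chosen, and they do not show what that choice alone would give.

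Between genes, levels were compared per kilobase of transcript. In CD44high Tregs of uninjured mice *S100a10* was the most abundant, at 1699 ± 187 CPM per kb (SD, n = 4), followed by *Vim* at 853 ± 79.4, *Anxa6* at 763 ± 8.33, *S100a6* at 759 ± 106, *S100a4* at 755 ± 136 and *S100a11* at 714 ± 38.2. Among these last 5 the libraries of neighbours in the order overlapped. *Anxa2* at 322 ± 18.6, *S100a13* at 162 ± 18.5, *Lgals3* at 115 ± 3.42 and *Anxa1* at 82.6 ± 15.4 CPM per kb came below them, each further from its neighbour than the SDs. In CD44low Tregs of uninjured mice *S100a10* again led, at 511 ± 34.7, before *Anxa6* at 336 ± 21.4 and *Vim* at 223 ± 17.9. *Lgals3* and *Anxa1* were lowest, at 1.16 ± 0.684 and 0.917 ± 0.854 CPM per kb. On this scale *S100a4*, *Anxa2* and *S100a6* stood between 25.8 ± 5.36 and 28.6 ± 4.78 there.

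As a description, the log2 difference between CD44high and CD44low Tregs of uninjured mice was 6.59 ± 0.256 (standard error) for *Lgals3*, 6.44 ± 0.348 for *Anxa1*, 4.88 ± 0.20 for *S100a6* and 4.72 ± 0.270 for *S100a4*. It was 3.63 for *Anxa2*, 3.12 for *S100a11*, 1.93 for *Vim*, 1.73 for *S100a10* and 1.18 for *Anxa6*, and the smallest, for *S100a13*, was 0.97 ± 0.165. In injured mice it ranged from 0.73 for *Anxa6* to 4.52 for *Anxa1*, and for each of the 10 the fitted value was smaller than in uninjured mice. The median over the 10 was 3.37 in uninjured and 2.39 in injured mice. Libraries of the subsets did not overlap, with CD44high above, for 21.9% of all genes in uninjured and 15.6% in injured mice. *S100a13* was the member nearest to overlap, where the highest CD44low library reached 71.2 CPM against 101 for the lowest CD44high library of *S100a13* in uninjured mice and 119 against 126 in injured mice.

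**Figure D1:**
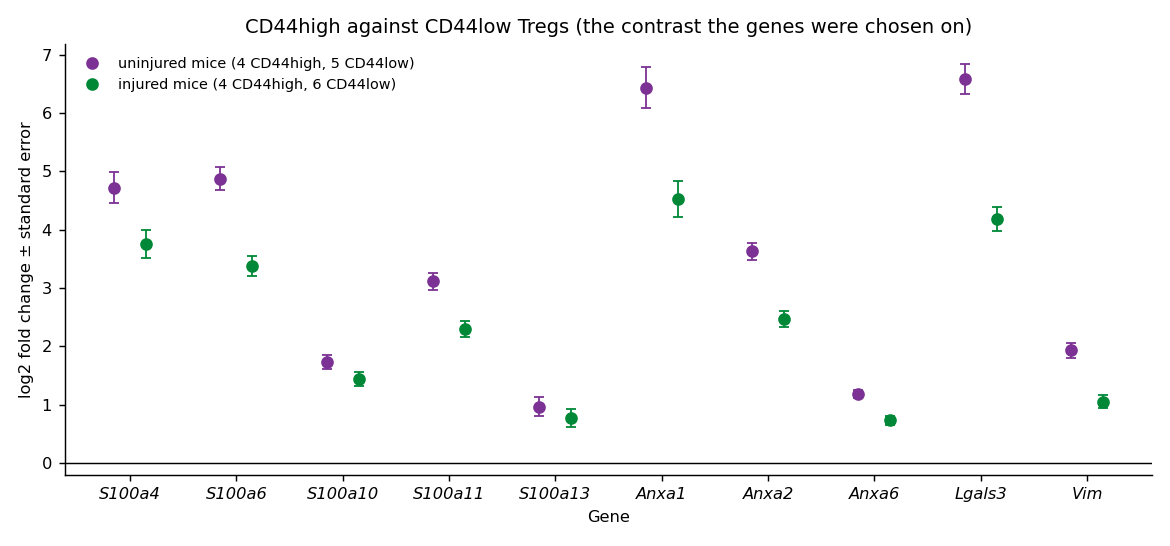
Fitted log2 fold change of CD44high over CD44low Tregs with its standard error (y) for each gene (x), in uninjured (purple) and injured (green) mice. Each green point lies below its purple neighbour, as for *Lgals3* at 4.18 and 6.59.

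Among the S100 members *S100a4*, which encodes a myosin-binding protein of motile cells, stood at 289.5, 355, 435 and 425 CPM in libraries 2 to 5 of CD44high Tregs of uninjured mice and at 243, 385, 291 and 429 in the same-numbered libraries of injured mice. In CD44low Tregs it stood at 10.9, 17.5, 14.1, 13.7 and 15.2 CPM in libraries 1 to 5 of uninjured mice, and after injury between 12 and 43.3 with a median of 25.3. The injured and uninjured ranges overlapped in both subsets, and the 3 highest CD44low libraries were those with a second number. Its log2 fold change after injury was -0.16 ± 0.243 (edgeR adjusted p = 0.818) in CD44high and 0.80 ± 0.245 (edgeR adjusted p = 0.0467) in CD44low Tregs, with an interaction of -0.96 ± 0.345 (edgeR adjusted p = 0.251). That interaction was -1.40 without the injured CD44low libraries with a single number (adjusted p = 0.00872), -0.39 without those with a second number (0.545) and -1.11 (0.0426) with the trend on transcript length, described below, taken out. The rise in CD44low Tregs was close to the threshold, with adjusted p between 0.00218 and 0.535 over the alternatives. Left out singly, the libraries that ended the call were CD44low libraries 1 (adjusted p = 0.0989), 3 (0.0694), 4 (0.0715) and 5 (0.0556) and CD44high library 4 (0.0542) of uninjured mice. Of injured mice they were CD44low libraries 1 (adjusted p = 0.0588), 1_2 (0.0914) and 4_2 (0.0805) and CD44high libraries 4 (0.0537) and 5 (0.0508). In the annotation *S100a4* shares 302 exon bases with the same-strand gene *Gm42674*, so its counts depend on how such reads were assigned.

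*S100a6*, whose product calcyclin was named for its rise in growing cells, was the S100 member with the largest rise in CD44low Tregs. In CD44high Tregs its libraries held 453, 556, 641 and 569.7 CPM in uninjured and 444, 445, 453 and 520.3 CPM in injured mice. CD44low libraries held 16.1, 25.4, 17.2, 19.7 and 16 CPM in uninjured mice and from 28.1 to 63.6 CPM (median 45.7) in injured mice. All 6 injured CD44low libraries lay above all 5 uninjured ones, while the CD44high ranges overlapped. The log2 fold change was 1.24 ± 0.176 (edgeR adjusted p = 0.000249) in CD44low and -0.25 ± 0.181 (edgeR adjusted p = 0.557) in CD44high Tregs, and the interaction was -1.49 ± 0.252 (edgeR adjusted p = 0.00321). All 3 libraries with a second number exceeded the 3 with a single number, at 54.8 ± 8.56 against 34.7 ± 8.89 CPM. The same order held for *S100a4*, at 33.5 ± 8.56 against 16.7 ± 5.60 CPM, and for no other member, and over all genes tested 9.37% had the second-number libraries on top. Without these 3 libraries the log2 fold change in CD44low Tregs was 0.87 for *S100a6* (adjusted p = 0.00156) and 0.23 for *S100a4* (adjusted p = 0.535).

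*S100a11*, a cytoskeletal and membrane-repair S100 protein whose promoter held 2 AP-1 matches, stood at 363, 338, 379 and 379 CPM in CD44high libraries of uninjured mice and 352, 305, 296 and 342 in those of injured mice. Its CD44low libraries stood at 39.1, 50.6, 44.7, 41.5 and 34.3 CPM without injury and between 44.1 and 91.4 CPM with it (median 64.6), with library 5 of injured mice inside the uninjured range. It rose in CD44low Tregs, with a log2 fold change of 0.64 ± 0.136 (edgeR adjusted p = 0.00719), and was not called in CD44high Tregs, at -0.17 ± 0.149 (edgeR adjusted p = 0.648). The interaction of -0.81 ± 0.201 (edgeR adjusted p = 0.0610) missed the threshold. It passed without CD44low library 2 of uninjured mice (adjusted p = 0.0433), CD44high library 2 of injured mice (0.0472), or CD44low libraries 5 (0.00996) or 5_2 (0.0477) of injured mice, and ranged from 0.000775 to 0.137 over all alternatives. The interaction also passed with DESeq2 (adjusted p = 0.00706), and in edgeR with RLE scaling factors (0.0491) or no filter (0.0446). The same held with libraries 1 and 1_2 and libraries 5 and 5_2 summed (0.0232), without the injured CD44low libraries with a single number (0.00653) and with the length trend taken out (0.000775). The annotation holds 2 processed pseudogenes of *S100a11*, *Gm12854* and *Gm7665*, with 99.0% and 98.7% identity over 297 bases, so some of its reads could be assigned to them. *S100a10*, the partner of annexin A2, ranged from 1016 to 1304 CPM in CD44high and 313 to 368 in CD44low Tregs of uninjured mice, and from 1025 to 1205 and 289 to 513 in injured mice. It was called for injury in neither subset in the main fit, at -0.10 ± 0.133 (edgeR adjusted p = 0.796) and 0.20 ± 0.115 (edgeR adjusted p = 0.280). In CD44low Tregs it was 0.40 without the injured libraries with a single number (adjusted p = 0.0390, a call) and -0.00932 without those with a second number (adjusted p = 0.968). In CD44high Tregs it was -0.32 with the length trend taken out (edgeR adjusted p = 0.0298, a call).

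*S100a13*, which takes part in the unconventional release of *Fgf1* and *Il1a* products, was the member whose highest level lay in CD44high Tregs of injured mice. It ranged from 126 to 157 CPM in CD44high Tregs of injured mice, from 101 to 133 in those of uninjured mice, from 65.3 to 119 in CD44low Tregs of injured mice and from 42.8 to 71.2 in those of uninjured mice. Each group overlapped with the next in this order. Its fitted log2 fold change after injury was above 0 in both subsets, at 0.27 ± 0.172 (edgeR adjusted p = 0.490) in CD44high and 0.47 ± 0.151 (edgeR adjusted p = 0.0566) in CD44low Tregs, and neither passed. The value in CD44low Tregs passed without CD44high library 2 of uninjured mice (adjusted p = 0.0488), CD44low library 5 of uninjured mice (0.0387), CD44high library 2 of injured mice (0.0399), or CD44low libraries 2 (0.0499), 5 (0.0426) or 5_2 (0.0184) of injured mice. That value also passed with DESeq2 (adjusted p = 0.0225), and in edgeR with RLE (0.0464) or upper quartile (0.04996) scaling factors or no filter (0.0411). The same held with libraries 1 and 1_2 and libraries 5 and 5_2 summed (0.0475) and without the injured CD44low libraries with a single number (0.0317). Over all alternatives its adjusted p ranged from 0.0184 to 0.218.

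The S100 members have short transcripts, from 498 to 731 bases, and libraries differed in how short transcripts were represented. Over 658 genes with transcripts under 1000 bases the median deviation of a library from the mean of all libraries, on the log2 scale, lay between -0.136 and 0.00941 in CD44high libraries of uninjured mice and between 0.0413 and 0.278 in those of injured mice. In CD44low libraries it lay between -0.260 and -0.00127 without and between -0.198 and 0.444 with injury, the highest being library 1_2. With each library's trend on transcript length taken out, an alternative chosen after seeing the data, 6 of 10 members were called lower after injury in CD44high Tregs in place of 3, where 1.92% of all genes were in that setting, the additional ones being *S100a10* (log2 fold change -0.32, adjusted p = 0.0298), *S100a11* (-0.45, 0.0220) and *Lgals3* (-0.64, 0.0380). In CD44low Tregs, where 4.01% of all genes were called higher, the 5 calls held in that setting, with *S100a6* at 1.09 and *S100a4* at 0.69 (adjusted p = 0.0377), and *S100a13* joined them at 0.33 (adjusted p = 0.0360).

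**Figure D2:**
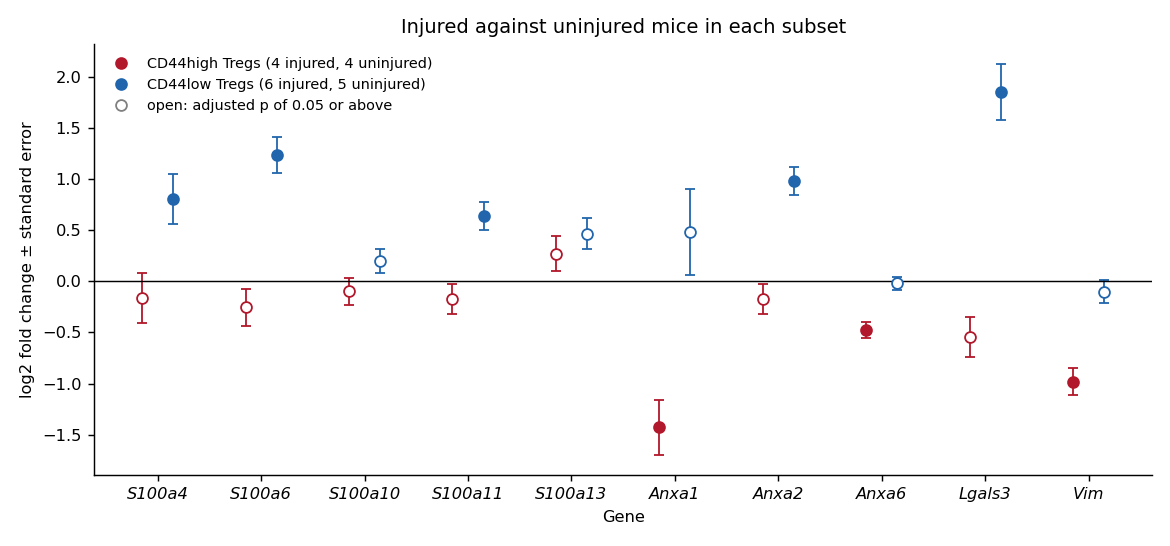
Log2 fold change of injured over uninjured mice with its standard error (y) for each gene (x), in CD44high (red) and CD44low (blue) Tregs, with filled points at an adjusted p under 0.05. Filled red points all lie below 0 (*Anxa1*, *Anxa6* and *Vim*) and filled blue points all lie above 0 (*S100a4*, *S100a6*, *S100a11*, *Anxa2* and *Lgals3*).

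Of the annexins *Anxa1*, whose product limits inflammation through formyl peptide receptors, had the largest fall in CD44high Tregs. It stood at 161, 146, 144 and 101 CPM in libraries 2 to 5 of uninjured mice and at 54.8, 51.3, 43.4 and 55.8 CPM in those of injured mice. Every injured library lay below every uninjured one, and the log2 fold change was -1.43 ± 0.272 (edgeR adjusted p = 0.00384). CD44low Tregs had little *Anxa1*, with 52 counts over the 5 uninjured libraries, at 0.63, 1.89, 1.42, 3.74 and 0 CPM, and 89 counts over the 6 injured ones, between 1.55 and 3.74 CPM with a median of 1.93. These ranges overlapped, and the log2 fold change of 0.48 ± 0.419 (edgeR adjusted p = 0.487) was not called. That value ranged from 0.21 to 1.15 with single libraries left out, and the highest, without CD44low library 4 of uninjured mice, had an adjusted p of 0.0978. The interaction was -1.91 ± 0.497 (edgeR adjusted p = 0.0759) and missed the threshold, with adjusted p from 0.00894 to 0.270 over the alternatives. It passed without CD44low library 4 of uninjured mice, the one with most *Anxa1*, at a log2 value of -2.56 (adjusted p = 0.00894). The interaction also passed with DESeq2 (-1.94, adjusted p = 0.0395), and in edgeR with no filter (-1.93, 0.0475) or without the libraries with a second number (-2.14, 0.0392).

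*Anxa2*, the membrane partner of S100A10, rose in CD44low Tregs. Its libraries there stood at 32.8, 36.1, 33.9, 46.1 and 39.3 CPM without injury and between 53.8 and 97.4 CPM with it (median 71.1). In CD44high Tregs the values were 483, 429.8, 490.1 and 462 CPM in uninjured and 493, 335, 420.5 and 405 CPM in injured mice. All injured CD44low libraries exceeded all uninjured ones, with and without a second number, while library 2 of injured CD44high Tregs was the highest of that subset. The log2 fold change was 0.98 ± 0.134 (edgeR adjusted p = 0.000137) in CD44low and -0.17 ± 0.145 (edgeR adjusted p = 0.635) in CD44high Tregs, and the interaction -1.15 ± 0.197 (edgeR adjusted p = 0.00353). *Anxa2* thus rose in the subset in which *S100a10*, whose product it binds, had a log2 fold change of 0.20, and the 2 genes were not compared by a test.

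*Anxa6*, the long annexin that is abundant in lymphocytes, fell in CD44high Tregs. Its CD44high libraries were close together, at 1878, 1912, 1921 and 1885 CPM in uninjured and 1420.3, 1340.3, 1412 and 1302 CPM in injured mice. CD44low libraries stood at 921, 832, 779, 841 and 808 CPM without injury and between 736 and 887 CPM with it (median 831). The CD44high groups did not overlap and the CD44low groups did. The log2 fold change was -0.47 ± 0.0796 (edgeR adjusted p = 0.00132) in CD44high and -0.02 ± 0.0682 (edgeR adjusted p = 0.883) in CD44low Tregs. The interaction of -0.45 ± 0.105 (edgeR adjusted p = 0.0436) was close to the threshold, with adjusted p from 0.000264 to 0.122 over the alternatives. It was lost without CD44high libraries 2 (adjusted p = 0.0713), 3 (0.0795), 4 (0.0886) or 5 (0.0713) or CD44low libraries 2 (0.0673), 3 (0.0815), 4 (0.0637) or 5 (0.0778) of uninjured mice. Of injured mice the same held for CD44high libraries 3 (adjusted p = 0.103), 4 (0.0747) and 5 (0.122) and CD44low libraries 1 (0.0596), 2 (0.0613) and 4_2 (0.0518).

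*Lgals3* had the largest interaction of the 10. In CD44high Tregs it stood at 159.6, 169.7, 161 and 159.8 CPM in uninjured and 127, 84.0, 124 and 110.0 CPM in injured mice. In CD44low Tregs it had few counts, with 55 counts over the 5 uninjured libraries, at 0.313, 1.58, 2.41, 2.73 and 1.18 CPM, and 243 counts over the 6 injured ones, from 4.65 to 8.56 CPM with a median of 5.83. The injured libraries lay below the uninjured ones in CD44high and above them in CD44low Tregs, without overlap in either. The log2 fold change was 1.86 ± 0.276 (edgeR adjusted p = 0.000402) in CD44low Tregs, and in CD44high Tregs it was -0.55 ± 0.194 (edgeR adjusted p = 0.154) and was not called. Over the alternatives the adjusted p in CD44high Tregs ranged from 0.0254, with the compared groups fitted alone, to 0.323, and it was 0.0340 with DESeq2. The interaction was -2.40 ± 0.338 (edgeR adjusted p = 0.000540) and passed the test under each alternative at an adjusted p under 0.05.

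*Vim* fell in CD44high Tregs and had no called change in CD44low Tregs. CD44high libraries held 1654, 2078, 1852 and 1898 CPM in uninjured and 901, 991, 930.5 and 970.2 CPM in injured mice. Those of CD44low Tregs held 532, 486, 439.6, 525 and 465 CPM in uninjured mice and from 311 to 572 CPM (median 459.9) in injured mice. Injured and uninjured CD44high libraries were far apart, whereas the CD44low ranges overlapped. The log2 fold change was -0.98 ± 0.131 (edgeR adjusted p = 0.000137) in CD44high and -0.10 ± 0.111 (edgeR adjusted p = 0.597) in CD44low Tregs, with an interaction of -0.88 ± 0.171 (edgeR adjusted p = 0.0129). Together with *Anxa1*, *Anxa6* and *Lgals3*, *Vim* made 4 of 10 members whose injured CD44high libraries all lay below the uninjured ones, as 7.34% of all genes did. In CD44low Tregs *S100a6*, *Anxa2* and *Lgals3* were the 3 of 10 whose injured libraries all lay above, as 2.39% of all genes did.

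Values that moved with these results were read beside them. In CD44high Tregs the log2 fold change of *Cd44* after injury was -0.45 ± 0.123 (edgeR adjusted p = 0.0546). Whether the makeup of the CD44high gate has a part in the falls of *Anxa1*, *Anxa6* and *Vim* was not tested. In CD44low Tregs 1 of 7 macrophage and dendritic cell markers tested rose and was *Lyz2*, at a log2 fold change of 1.27 ± 0.349 (edgeR adjusted p = 0.0301), and the summed level of the 10 was 63.5, 81.7 and 160.3 CPM in injured libraries 1, 2 and 5 and 37.9, 46.9 and 44.0 in 1_2, 4_2 and 5_2. With libraries 1, 2 and 5 left out, the log2 fold change in CD44low Tregs was 1.71 for *Lgals3* (adjusted p = 0.00621), 1.56 for *S100a6* and 1.06 for *Anxa2*, and with 1_2, 4_2 and 5_2 left out it was 1.99, 0.87 and 0.93. The *Lyz2* call ended without CD44low libraries 1 (adjusted p = 0.0685), 4 (0.0593) or 5 (0.0532) of uninjured mice or CD44low library 5 of injured mice (0.0645). It also ended without the injured libraries with a single number (0.368), and the adjusted p ranged from 0.00210 to 0.368 over the alternatives.

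Of 7 CD8 and NK cell markers tested, 1 rose in CD44low Tregs after injury and 1 fell in CD44high Tregs, and 1 passed for the interaction. *Klrb1c*, a natural killer cell receptor gene, had 9 counts over the CD44low libraries of uninjured mice and 96 over those of injured mice, at 0.294 ± 0.422 and 2.32 ± 1.32 CPM (edgeR adjusted p = 0.00873), with overlapping ranges. That call was lost without the injured libraries with a single number (adjusted p = 0.107). *Prf1*, the perforin gene, fell in CD44high Tregs from 31.9 ± 6.76 to 15.9 ± 3.45 CPM (edgeR adjusted p = 0.0111), a call lost without CD44high library 2 of uninjured mice (adjusted p = 0.0675). Its interaction was -1.42 ± 0.286 (edgeR adjusted p = 0.0155), and this call was lost without the injured CD44low libraries with a single number (adjusted p = 0.0525). *Gzmb*, the granzyme B gene, which was high in CD44high Tregs at 408 ± 95 CPM without injury, stood in CD44low Tregs at 3.75 ± 2.02 and 5.49 ± 2.99 CPM without and with injury, at 0.58 ± 0.346 (edgeR adjusted p = 0.299). In CD44high Tregs *Pecam1*, an endothelial marker that lymphocytes also express, rose from 60.8 ± 6.79 to 97.9 ± 15.2 CPM, at 0.69 ± 0.143 (edgeR adjusted p = 0.00750), and of 8 B cell markers *Cd22* rose, at 1.72 ± 0.312 (edgeR adjusted p = 0.00267). In CD44low Tregs *Cd44* itself had a log2 fold change of -0.18 ± 0.108 (edgeR adjusted p = 0.284). The part of such cells in the changes of the members was not tested.

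**Figure D3:**
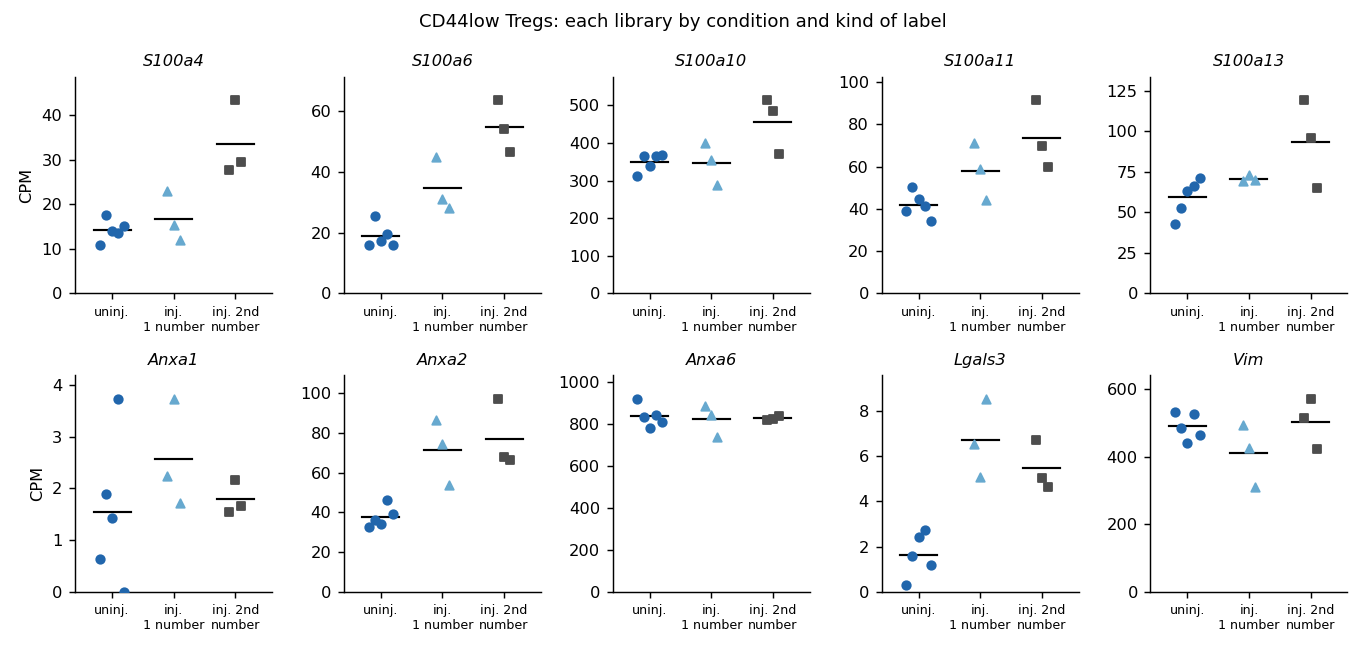
CPM (y, from 0) of the 10 genes in CD44low Tregs, 1 panel a gene, for uninjured libraries (circles, n = 5), injured libraries with a single number (triangles, n = 3) and injured libraries with a second number (squares, n = 3), with bars at the means. Both injured sets stand above the uninjured libraries for *S100a6*, *Anxa2* and *Lgals3*, and for *S100a4* the squares stand above the triangles.

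Within the groups, the members differed in how they varied from library to library. After the group mean of log2 CPM was taken out, Pearson's r between 2 members over the 19 libraries was above 0 for 38 of 45 pairs, with a median of 0.41, as a description of libraries that share depth and the trend on transcript length. The 10 pairs of S100 members, all with short transcripts, had a median of 0.74 and the other pairs one of 0.21. For genes outside the set, short ones among them, r was not worked out. Among the members r differed from pair to pair. The value was highest for *S100a6* with *S100a10*, at 0.87, and lowest for *Anxa6* with *Lgals3*, at -0.53.

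Relatives of the 10 genes were counted from lists that were chosen with earlier results of these data known. Of 12 other S100 genes 5 were tested, and *S100a1* and *S100a3*, at no more than 4.39 CPM in any group, were called higher in CD44high Tregs in both conditions, as 24.7% of all genes were in uninjured and 20.1% in injured mice. *S100a8* and *S100a9*, the calprotectin genes of neutrophils and part of the neutrophil markers above, had 1 and 1 counts over the CD44high and 8 and 2 over the CD44low libraries of uninjured mice, against 127 and 140, and 158 and 137, in injured mice. Most of these lay in CD44high library 3 (86 and 93 counts) and CD44low library 2 (131 and 101) of injured mice. *S100a9* was called higher after injury in CD44high Tregs (edgeR adjusted p = 0.0496), as 1.06% of all genes were, and in CD44low Tregs (0.0241). The first call ended when CD44high library 3 of injured mice was left out (0.143), and also without CD44high library 5 or CD44low library 5 of injured mice or any 1 library of uninjured mice. The second ended without CD44low library 2 of injured mice (0.0791) or 1 of CD44low libraries 1, 2, 3 and 4 of uninjured mice. Over the alternatives the adjusted p ranged from 0.0189 to 0.149 and from 0.00455 to 0.0791. Without CD44low library 2 of injured mice the log2 fold change in CD44low Tregs was 1.35 for *S100a6*, 1.01 for *Anxa2* and 1.94 for *Lgals3*.

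Of 9 other annexin genes 5 were tested, and *Anxa4*, *Anxa5* and *Anxa7* were called higher in CD44high Tregs in both conditions. *Anxa4* stood at 75.8 ± 9.31 CPM in CD44high and 14 ± 1.83 in CD44low Tregs of uninjured mice. After injury the values were 51.8 ± 6.94 and 18.9 ± 3.67 CPM. Its log2 fold change after injury was -0.55 ± 0.158 (edgeR adjusted p = 0.0667) in CD44high and 0.43 ± 0.149 (edgeR adjusted p = 0.0751) in CD44low Tregs. It was the only one of the relatives called for the interaction, at -0.98 ± 0.217 (edgeR adjusted p = 0.0316), and its adjusted p ranged from 0.00193 to 0.103 over the alternatives. Single libraries whose omission ended that call were CD44high libraries 2 and 4 and CD44low libraries 1 and 3 of uninjured mice (adjusted p = 0.0659, 0.0886, 0.0531 and 0.0612), and CD44high libraries 3, 4 and 5 and CD44low library 1 of injured mice (0.0760, 0.0616, 0.103 and 0.0506). The table held 8 other galectin genes, of which 4 were tested and 3 called higher in CD44high Tregs of uninjured mice and 2 in those of injured mice. *Lgals1*, the galectin-1 gene, was at 1196 ± 85.2 CPM in CD44high and 133 ± 12.7 in CD44low Tregs of uninjured mice and after injury at 955 ± 50.5 and 163 ± 38.1 CPM. Its log2 fold change between the subsets was 3.17 ± 0.137 in uninjured and 2.55 ± 0.125 in injured mice. *Lgals8* rose in CD44low Tregs, at 0.35 ± 0.107 (edgeR adjusted p = 0.0456), with adjusted p from 0.00995 to 0.269 over the alternatives. This call ended, with adjusted p from 0.0538 to 0.0896, without CD44high library 4 or CD44low libraries 1, 2 or 5 of uninjured mice, or without CD44high libraries 4 or 5 or CD44low libraries 1, 2 or 5 of injured mice. Neither *Lgals1* nor *Lgals9* was called for injury in CD44high (adjusted p = 0.244 and 0.903) or in CD44low Tregs (0.116 and 0.163).

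Of 13 intermediate filament and linker genes 5 were tested, and in each condition 1 was called higher and 1 lower in CD44high Tregs. *Plec*, encoding plectin, which ties intermediate filaments such as vimentin to other structures, fell in CD44high Tregs from 244 ± 19 to 147 ± 25.3 CPM, a log2 fold change of -0.73 ± 0.147 (edgeR adjusted p = 0.00631). *Macf1*, the actin and microtubule linker, fell in CD44low Tregs, as 3.36% of all genes did, at -0.60 ± 0.175 (edgeR adjusted p = 0.0377), with adjusted p from 0.00208 to 0.312 over the alternatives. Its call ended without CD44low libraries 1 to 4 of uninjured mice or CD44low libraries 1, 2, 5, 1_2 or 4_2 of injured mice, each left out singly, with adjusted p from 0.0559 to 0.101. Among 16 partner and receptor genes 9 were tested, with 3 higher and 3 lower in CD44high Tregs of uninjured mice and 2 higher and 1 lower in those of injured mice, and *Ahnak*, whose product binds the complex of S100A10 and annexin A2, fell in CD44high Tregs from 405 ± 27.3 to 192 ± 26.8 CPM, at -1.07 ± 0.187 (edgeR adjusted p = 0.00177). In CD44low Tregs *Ahnak* stood at 114 ± 29.2 and 101 ± 26.5 CPM, at -0.18 ± 0.162 (edgeR adjusted p = 0.505), and its interaction was -0.89 ± 0.247 (edgeR adjusted p = 0.103). *Plec*, *Macf1* and *Ahnak* have transcripts of 15455, 23495 and 18100 bases, and with the length trend taken out the values were -0.63 (adjusted p = 0.000658), -0.26 (0.136) and -0.97 (0.000112).

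**Figure D4:**
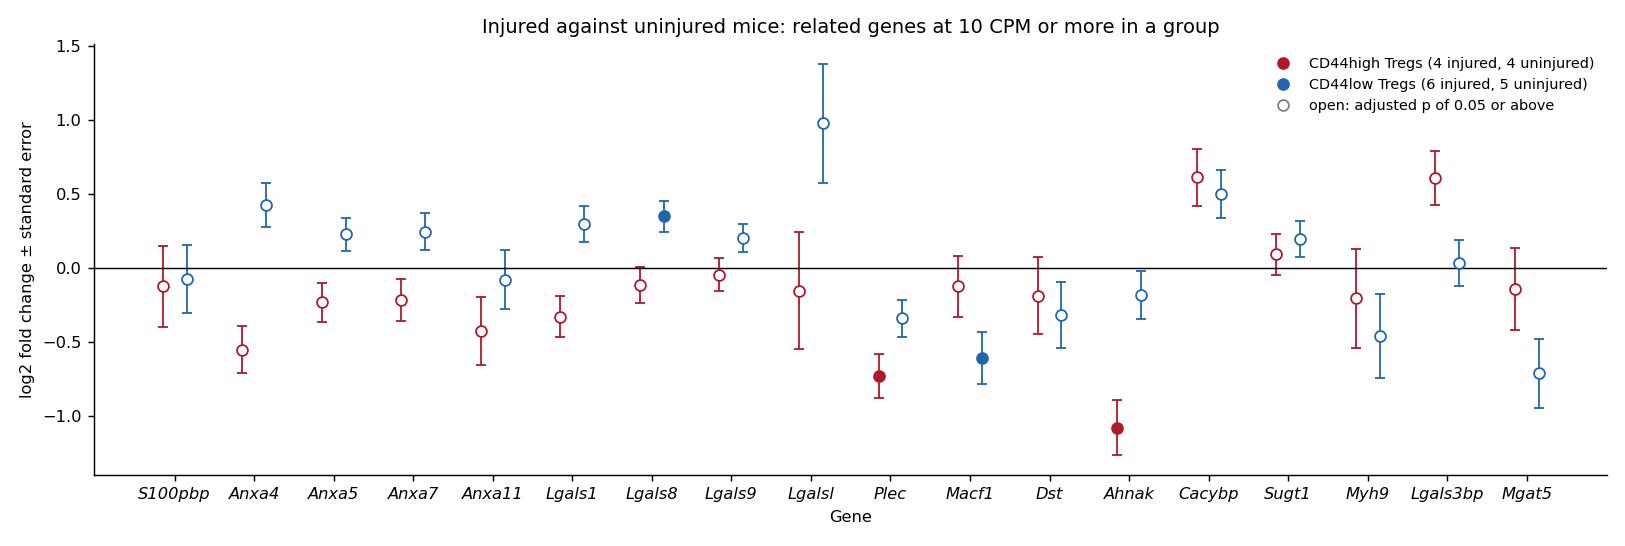
Log2 fold change of injured over uninjured mice with its standard error (y) for the related genes at 10 CPM or more in a group (x), in CD44high (red) and CD44low (blue) Tregs, with filled points at an adjusted p under 0.05. *Plec* and *Ahnak* are the filled red points and *Lgals8* and *Macf1* the filled blue ones.

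The genes outside the set whose 4 group means of log2 CPM lay nearest to the mean profile of the members, after centring, were *E2f1*, *Scpep1*, *Paqr4*, *D330045A20Rik* and *Trf*, at Euclidean distances of 0.0939, 0.134, 0.136, 0.169 and 0.193 on the log2 scale over the 4 groups. *Scpep1* had group means of 104 and 8.64 CPM in CD44high and CD44low Tregs of uninjured mice and 81.5 and 15.4 CPM in injured mice. The others were lower, with *D330045A20Rik* at no more than 3.42 CPM in any group. In CD44low Tregs of uninjured mice *E2f1*, *Paqr4*, *D330045A20Rik* and *Trf* stood at 2.73, 6.14, 0.0630 and 1.93 CPM. At such levels the log2 means rest on few counts. The members themselves lay between 0.261 (*Anxa2*) and 2.66 (*Anxa1*) from their mean profile, so that no single member was as near to it as these genes.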

How the data were processed

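RNA of sorted Tregs was sequenced in 19 libraries and the authors deposited 1 table of raw read counts per gene symbol, made with STAR in the VIPER workflow and not normalized. The submitters' processing notes name STAR 2.5, bcl2fastq 2.18 and the builds mm9 and mm10 without their roles, and no source used here gives the annotation. The table held 24982 symbols, of which 8091 had no count. Library totals, between 5582234 and 9433610 counts, set the precision of low genes such as *Lgals3* in CD44low Tregs.

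Counts were analysed in R 4.3.3 with edgeR 4.0.16: genes were kept by filterByExpr (minimum count 10, leaving 11464), scaled by TMM (factors 0.97 to 1.037), and fitted with 1 mean for each of the 4 groups over all libraries. Fold changes and quasi-likelihood p-values were taken from contrasts of these means, and p was adjusted by the Benjamini-Hochberg method over all genes kept. Each standard error was worked back from the test, as the absolute log2 fold change divided by the square root of the quasi-likelihood F statistic. The script was tested on simulated data. Levels are CPM with TMM scaling, and levels between genes are per kb of the longest coding transcript where stated. The members, the related lists and the tests were chosen with earlier results of these data known. Genes were named by rule: the 10 members, related genes at a mean of 10 CPM or more in a group, the 5 genes nearest in profile, and marker and sort genes; *S100a1* and *S100a3* fall outside it and were named after their values were seen. Marker lists covered macrophages and dendritic cells, neutrophils, B cells, CD8 and NK cells, stromal and endothelial cells, and keratinocytes.

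A sort gene is not reported here. Alternatives were DESeq2 1.42.0, other scaling factors, no filter, the compared groups alone, a block on the number in the label, other treatments of the libraries with a second number, each library left out, a stricter threshold (p under 1e-06, here taken as unadjusted, and 2-fold, after the study's counts of changed genes), and a loess trend on transcript length taken out of each library, which was chosen after seeing the data. Promoters and positions came from RefSeq and GENCODE (GRCm38.p6), matched by symbol (24463 in GENCODE, 364 more in RefSeq, 155 unmatched). Copies were searched with BLAST 2.17.0 and figures drawn with matplotlib 3.10.9 in Python 3.11.15.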

Additional observations from a re-analysis of the deposited data

Results flagged for a closer look

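Sample by sample, 7 of 112 groups of 4 to 6 libraries (28 genes, each in 4 groups) had 1 library set apart from the rest by Dixon's criterion at its 95% critical value, which chance alone gives for about 1 group in 20. Among the members these were *S100a6* in injured CD44high library 5, at 520 CPM against 453 for the nearest library, *Anxa1* in injured CD44low library 2, at 3.74 CPM, and *Lgals3* in uninjured CD44high library 3, at 170 CPM. Among the relatives they were *S100pbp* in uninjured CD44high library 4 (5.84 CPM, the lowest), *Anxa5* in uninjured CD44high library 2 (316 CPM), *Lgalsl* in injured CD44high library 2 (7.44 CPM, the lowest) and *Macf1* in injured CD44low library 5_2 (202 CPM).

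The interaction term of the edgeR model was called for 5 members and 1 relative, where 0.454% of all genes were called in that direction. It shares its libraries with the difference on which the members were chosen. With CD44high library 5 of injured mice left out, the edgeR adjusted p was 0.122 for *Anxa6* and 0.103 for *Anxa4*. The log2 difference, CD44high less CD44low, was -2.4 for *Lgals3*, -1.49 for *S100a6*, -1.15 for *Anxa2*, -0.88 for *Vim*, -0.45 for *Anxa6* and -0.98 for *Anxa4*.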

How the results depend on the processing

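The medians of the log2 difference between CD44high and CD44low Tregs over the 10 members, 3.37 and 2.39, stayed between 3.33 and 3.42 and between 2.26 and 2.5 over all alternatives. The members called for injury were 3 in CD44high and 5 in CD44low Tregs, with 5 for the interaction; under the stricter threshold (unadjusted p under 1e-06 and 2-fold) these were 0, 2 and 1, and with the length trend taken out they were 6, 6 and 7. DESeq2 gave 4, 6 and 7. Leaving out each library gave 3 to 3, 4 to 6 and 4 to 6. With the length trend taken out, 1.92% of all genes were called lower in CD44high and 4.01% higher in CD44low Tregs. For the interaction in that setting, and for every other alternative, the share of all genes called was not worked out. Whether these counts moved with that share was not tested. The related genes called were 3, 3 and 1. They were 6, 6 and 3 with DESeq2, 5 and 1 with the compared groups alone (no interaction can be had there), 7 and 11 for injury in CD44high and CD44low Tregs without the libraries with a second number, and 5 for CD44high Tregs and 4 for the interaction with the length trend taken out. With libraries 1 and 1_2 and libraries 5 and 5_2 summed, 6 were called in CD44high Tregs and 2 for the interaction, and without the libraries with a single number 2 for the interaction. Leaving out each library gave 2 to 5, 0 to 8 and 0 to 1. Why the counts of related genes moved was not tested.

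Values near 0 changed sign in CD44low Tregs: *Anxa6*, at -0.02, was 0.010 with no filter and 0.0080 without the libraries with a single number, and lay from -0.022 to 0.041 with each library left out; *Vim*, at -0.10, was 0.061 without the libraries with a single number and lay from -0.15 to 0.011 with each library left out; *S100a10*, at 0.20, was 0.40 (edgeR adjusted p = 0.0390) without the libraries with a single number and -0.0093 without those with a second number, where the interaction of *S100a13*, at -0.20, was 0.017. Of the values of single genes in settings that left out no single library, 942 were unchanged, 24 passed the threshold in addition and 25 no longer did. A further 5 changed sign and 6 moved. Unchanged values kept their direction and their side of the threshold. For the members' differences between subsets, which had no test, unchanged means a shift below the gene's SD within groups, and moved means a larger shift.

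With the replicate block on the number in the label, 3, 4 and 4 members were called, and 1 related gene in CD44low Tregs and 0 for the interaction; *S100a4* in CD44low Tregs (log2 0.78, edgeR adjusted p = 0.0862) and the interaction of *Anxa6* (-0.44, 0.0890) were the member calls lost. Same-numbered libraries of the subsets correlated, in their deviations from group means, from -0.00685 to 0.119 in uninjured and from -0.0537 to 0.167 in injured mice. In 1 of 4 and 3 of 4 pairs r was above 0.1. Between uninjured and injured mice r ranged from -0.120 to 0.0178, with 0 pairs above 0.1. Subsets with different numbers in injured mice ranged from -0.452 to 0.410. These values do not decide whether the numbers pair libraries, and the main fit used no pairing.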
